A study of Mus musculus with 15 samples.

Results

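A set of 10 genes of mouse fat was followed across all libraries of a knockout experiment on the cytokine IL-33: Mab21l2, Slco4a1, Grip1, Sptlc3, Lgr6, Npnt, Glrx, Cd164l2, Dtx4 and Prodh. They are 10 of the 37991 gene identifiers counted, and they were selected on large rises of their counts in inguinal fat of IL-33 knockout mice over wild type. Every one of the 10 was found in the count table and passed the filter on low counts in both fat depots. In inguinal tissue Mab21l2, Grip1 and Sptlc3 had under 10 counts in every wild-type library and passed only through the knockout libraries. Because measured inguinal values chose them, their inguinal values are given below as a description, with no test. The brown fat libraries had no part in the choice, and the tests of these genes are made there.

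Polyadenylated RNA was sequenced from 15 libraries of C57BL/6 mice in 4 groups. Brown adipose tissue was taken on postnatal day 0.5, 4 libraries being wild type and 4 labelled IL-33-/-. Inguinal white adipose tissue was taken on postnatal day 24, 4 libraries being wild type and 3, numbered 2 to 4, labelled IL-33-/-. Tissue and age change together, so they cannot be told apart in any comparison between the depots. The labels do not say whether a mouse was sampled once for each library or whether tissue was pooled, and the p-values cover the spread between libraries only, which could be technical. The labels give no detail of the knockout allele.

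IL-33 is a cytokine of stromal and epithelial cells that acts through the receptor ST2, chiefly on group 2 innate lymphoid cells and other immune cells. Inguinal fat is a white depot that can form thermogenic beige adipocytes, while brown fat makes heat from birth through the uncoupling protein Ucp1. The 10 genes belong to no single pathway. Lgr6, Npnt and Dtx4 act in signalling between cells. Slco4a1, Sptlc3, Glrx and Prodh are a transporter and 3 enzymes. Grip1 and Cd164l2 encode a scaffold and a predicted membrane protein, and Mab21l2 encodes a developmental regulator.

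Total counts ran from 26059635 to 53923009 per library. Levels are counts-per-million values scaled by the TMM method (CPM), and changes are log2 values of labelled knockout over wild type with a standard error (SE). Il33 itself had 3.45, 4.61, 3.82 and 3.55 CPM in the inguinal wild-type libraries and 0.346, 0.471 and 0.0791 CPM in the knockout libraries, which do not overlap. Its mean was 3.86 ± 0.524 CPM (SD, n = 4) in wild-type inguinal tissue and 0.299 ± 0.200 CPM (SD, n = 3) in the knockout, a log2 change of -3.73 (edgeR quasi-likelihood adjusted p = 1.25e-05). In brown tissue the wild types had 1.82, 3.21, 2.01 and 1.73 CPM and the labelled knockouts 0.413, 1.75, 1.41 and 0.594 CPM. The means were 2.19 ± 0.691 CPM (SD, n = 4) and 1.04 ± 0.641 CPM (SD, n = 4). That log2 change of -1.08 had an edgeR quasi-likelihood adjusted p of 0.229, and the highest labelled library lay inside the wild-type range. The brown group is therefore called the labelled knockout throughout. Over all genes, edgeR called 4498 of 15710 in inguinal tissue, which is 28.6%, of which 15.3% of all genes tested were higher and 13.3% lower. It called 41 of 15796 in brown tissue, or 0.26%. The median log2 change over all genes was -0.02 in inguinal and 0.01 in brown tissue.

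In inguinal fat the 10 genes stood well above wild type in every knockout library. The log2 changes ran from 1.38 for Prodh to 4.54 for Mab21l2, with folds of 2.59 to 23.2. The lowest knockout library lay above the highest wild-type library by 2.26-fold for Prodh and by 9.96-fold for Grip1, the narrowest and the widest gap among the 10. Of all genes tested, 18.3% had inguinal groups that did not overlap with the knockout higher, and these 10 were chosen to be among them. The rule states no threshold. Among the 6734 genes that averaged at least 1 CPM in the knockout and were higher there, Mab21l2 ranked 3 by log2 change, Slco4a1 5, Grip1 7, Sptlc3 8, Cd164l2 17, Lgr6 27, Npnt 39, Dtx4 71, Glrx 102 and Prodh 137. Shroom1 at 1.38 and Sdc4 at 1.37 stood beside Prodh in that order, so the set is a selection from a longer list and not its top.

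**Figure D1:**
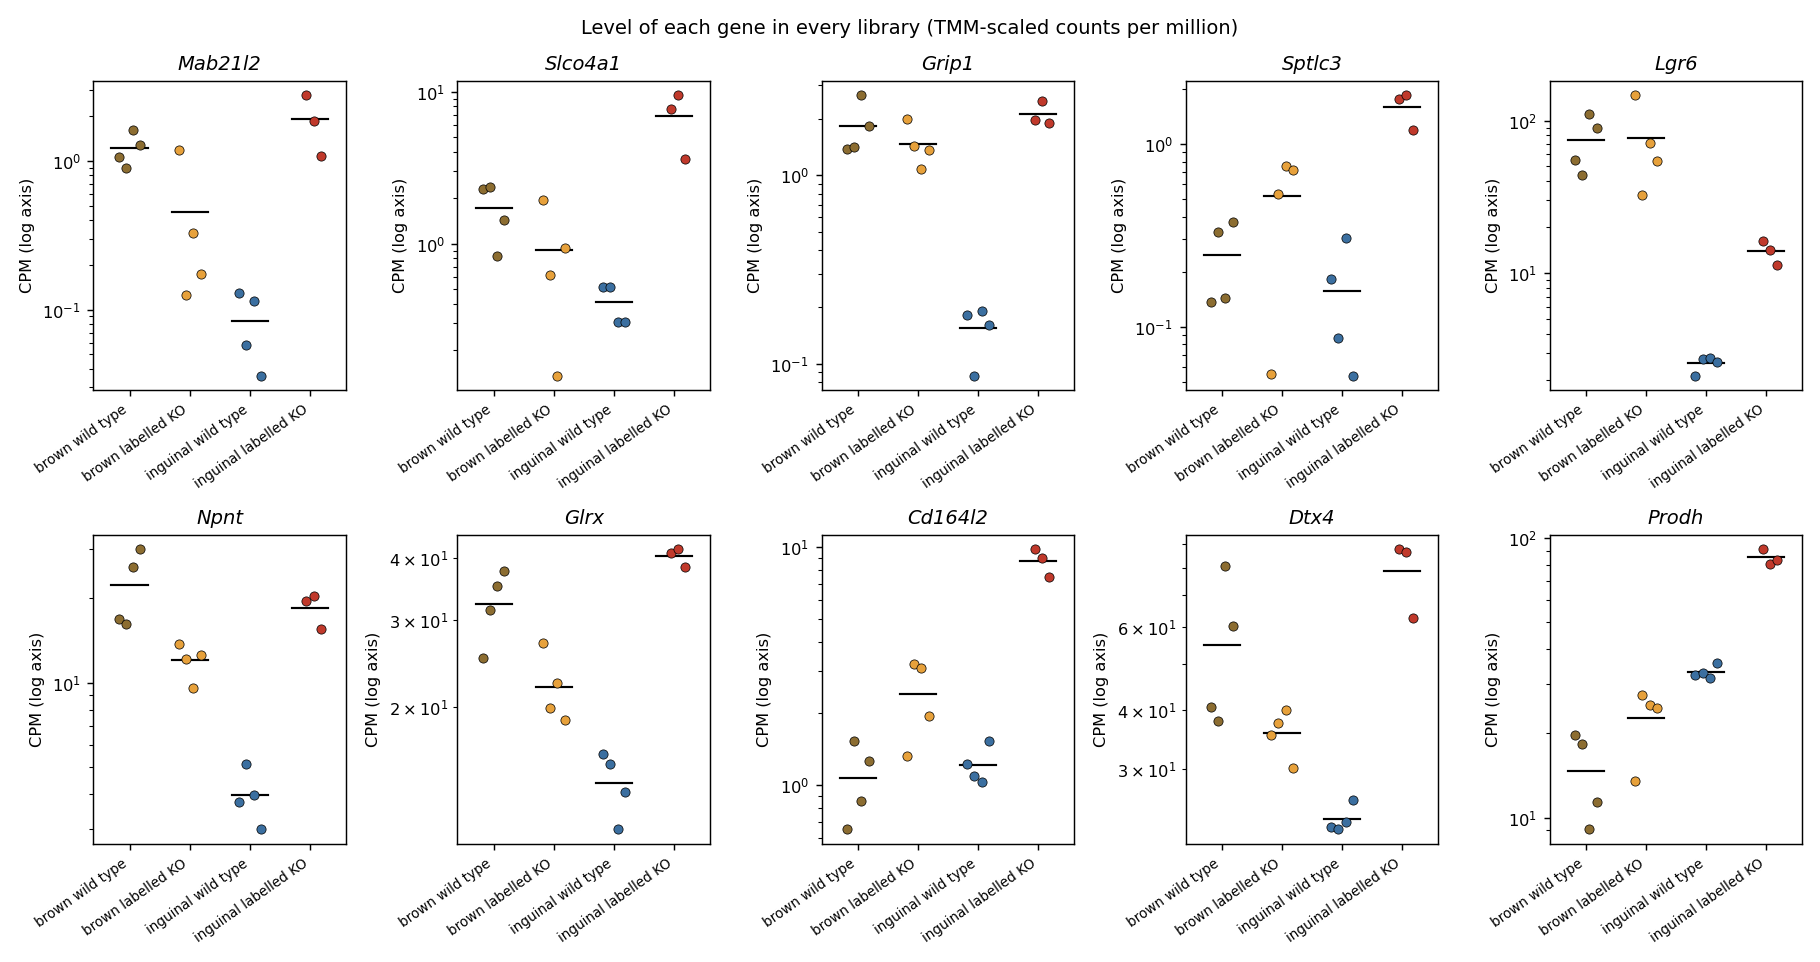
Level of each of the 10 genes in every library, as TMM-scaled CPM on log axes whose ranges differ between panels. Points are libraries of the 4 groups and lines are group means. In every panel the 3 inguinal knockout points lie above the 4 inguinal wild-type points, by 2.26-fold at the least.

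Set beside the brown libraries, the inguinal knockout values fell into 3 patterns. For Slco4a1, Sptlc3, Glrx, Cd164l2 and Prodh, the 3 inguinal knockout libraries were above all 8 brown libraries as well as above inguinal wild type. For Mab21l2, Grip1, Npnt and Dtx4 they overlapped the brown wild-type range. For Lgr6 they stayed below every brown library. Wild-type inguinal tissue had less than every wild-type brown library for 7 of the 10 genes (Mab21l2, Slco4a1, Grip1, Lgr6, Npnt, Glrx, Dtx4), overlapped it for Sptlc3 and Cd164l2, and had more for Prodh. These levels describe both tissue and age.

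In brown fat none of the 10 genes passed the test. The edgeR quasi-likelihood test called 0 of 10, against 0.26% of all genes. At an unadjusted p below 0.05 it counted 5 of the 10 (Mab21l2, Npnt, Glrx, Dtx4 and Cd164l2) and 2930 of 15796 genes in all. The estimates pointed down for Mab21l2, Slco4a1, Grip1, Npnt, Glrx and Dtx4, and up for Sptlc3, Lgr6, Cd164l2 and Prodh. For Npnt the 4 labelled knockout libraries all lay below the 4 wild-type libraries, and it was the only one of the 10 whose brown groups did not overlap. Groups that did not overlap were found for 9.74% of all genes tested in brown tissue.

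**Figure D2:**
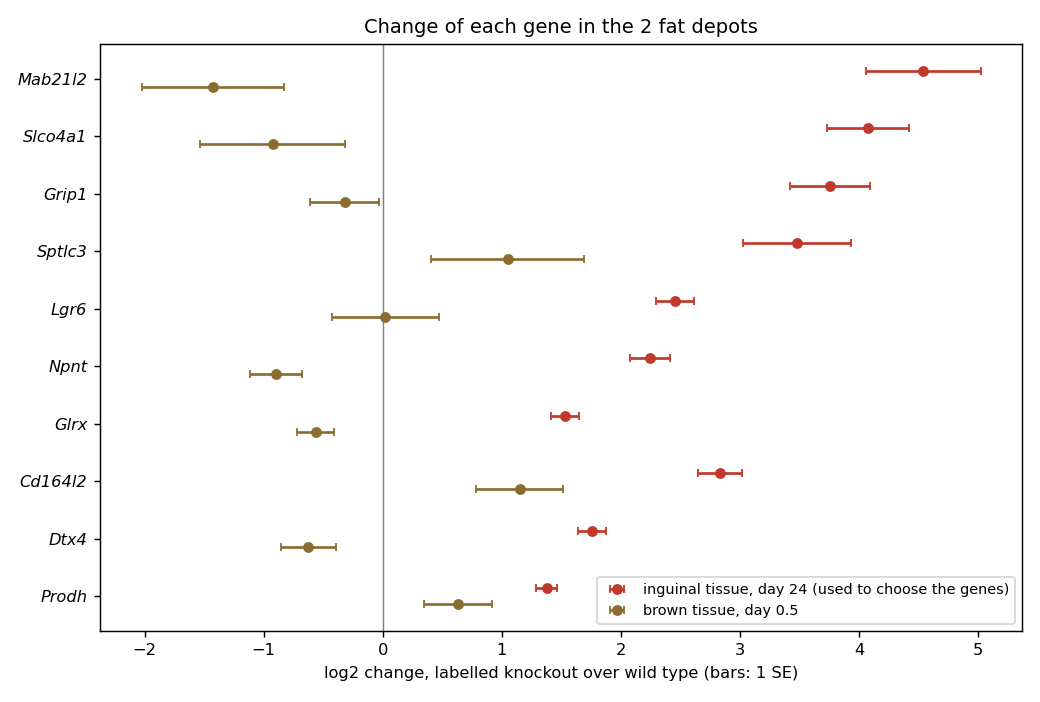
Log2 change of labelled knockout over wild type for each gene in inguinal tissue (red) and brown tissue (brown), with bars of 1 SE from the edgeR fits. All 10 inguinal values lie between 1.38 and 4.54, and chose the genes, while the brown values lie between -1.42 and 1.15.

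The result in brown tissue depended on 1 library and also on the test used. Labelled knockout library 1 lay within the wild-type range for 6 of the 10 genes (Mab21l2, Slco4a1, Grip1, Glrx, Cd164l2, Prodh). Labelled libraries 2, 3 and 4 lay within it for 1, 2 and 2 genes. Over all genes tested, library 1 was outside the wild-type range for 58.3%, close to the 56.6% to 62.5% of the other labelled libraries. Set against those libraries directly, it stood apart. The chi-square per degree of freedom between the counts of 2 libraries measures how far they differ beyond sampling noise. It was 199, 137 and 189 for library 1 against labelled libraries 2, 3 and 4, and 20.9 to 48.4 among those others. Without library 1, edgeR called 5 of the 10, with 18.1% of all genes called. Mab21l2 (log2 -2.52, adjusted p = 0.00381), Npnt (-0.97, adjusted p = 0.0232) and Glrx (-0.68, adjusted p = 0.0125) were lower, and Cd164l2 (1.35, adjusted p = 0.0179) and Sptlc3 (1.42, adjusted p = 0.0433) were higher. Sptlc3 had 5, 11, 5 and 16 counts in brown wild type and 17, 28 and 29 in labelled libraries 2, 3 and 4. In that fit its wild-type libraries alone would not have passed the low-count filter, so its call rests on few counts and on the group where it was higher. With all 8 libraries, limma-voom with library quality weights called 19.8% of all genes and 5 of the 10 (Mab21l2, Npnt and Glrx lower, Cd164l2 and Prodh higher). The DESeq2 Wald test called 6.81% of all genes and a fit of all 4 groups 6.83%, and each called 3 of the 10 (Npnt and Glrx lower, Cd164l2 higher). A rise restricted to inguinal tissue was thus not shown for Cd164l2, Sptlc3 and Prodh, which were called higher in brown tissue under at least 1 of these settings. Il33 was 0.413 CPM in labelled library 1, the lowest of the 8 brown libraries.

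**Figure D3:**
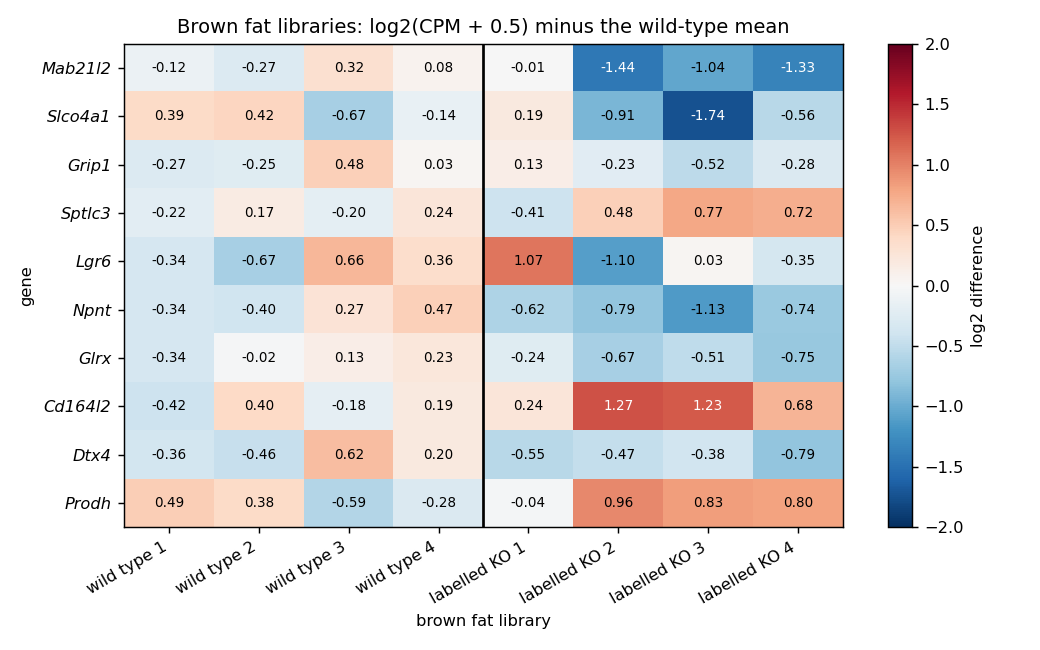
Brown fat libraries only: each cell gives log2(CPM + 0.5) of a gene in a library minus the mean of the 4 wild-type libraries, with red above and blue below that mean. Labelled knockout library 1 is near 0 for Mab21l2 (-0.01) and Prodh (-0.04) and below 0 for Sptlc3 (-0.41).

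Lgr6 encodes a membrane receptor for R-spondins, secreted proteins that strengthen Wnt signalling. In inguinal tissue it had 2.13, 2.74, 2.79 and 2.62 CPM in wild type and 16.2, 14.2 and 11.3 CPM in the knockout. The lowest knockout library was 4.07 times the highest wild-type one, and the log2 change was 2.45 (SE 0.16). In brown tissue it had 54.9, 43.7, 110.4 and 89.5 CPM in wild type and 147, 32.3, 71.5 and 54.6 CPM in the labelled knockout. Labelled library 1 was the highest of all 15 libraries and library 2 the lowest of the brown ones, so the groups overlapped, with a log2 change of 0.02 (edgeR, SE 0.45, adjusted p = 0.986). Wild-type brown tissue held 29.1 times the mean of wild-type inguinal tissue and still 5.35 times that of inguinal knockout. The brown estimate changed sign in 5 of the alternative fits, from -0.52 with limma-voom to 0.28 without labelled library 2.

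Among the relatives of Lgr6, Lgr4 had a log2 change of -0.01 and Lgr5 of -0.37 in inguinal tissue, and neither passed the edgeR test (adjusted p = 0.964 and 0.560). Of 42 tested genes of R-spondin and Wnt signalling, 8 rose and 2 fell in inguinal tissue, 23.8% against 28.6% of all genes, and the median change was 0.07. Axin2, a feedback inhibitor that Wnt signalling itself induces, rose from 8.24 ± 1.82 CPM (SD, n = 4) to 24.6 ± 4.92 CPM (SD, n = 3), by 1.59 (SE 0.17, edgeR adjusted p = 4.40e-05). The receptors Fzd7 (0.86), Lrp5 (0.61) and Fzd5 (0.68) rose as well. The transcription factor Tcf7l2 fell by 0.87 and the secreted inhibitor Sfrp4 fell by 1.5. The call of Sfrp4 was lost without knockout library 2 (adjusted p = 0.110) or 3 (adjusted p = 0.0548) and without the low-count filter (adjusted p = 0.0633). In a fit of all 4 groups, which shares its estimate of the spread with the brown libraries and called 13.3% of all genes in inguinal tissue, the call of Fzd7 was lost (adjusted p = 0.242).

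Npnt encodes nephronectin, a matrix protein of basement membranes that binds the integrin whose alpha chain is Itga8. The upstream stretch below is shown because Npnt was the one gene of the 10 whose groups did not overlap in either depot, in opposite directions. It is 1 of 2 RefSeq windows for the gene, read 5′ to 3′ and ending at the base before the start, at chr3:132950292-132950541 on the minus strand of GRCm38.p6. Capitals mark a nuclear receptor half-site (AGGTCA) at -188 and GC boxes (GGGCGG on either strand) at -88, -77 and -19.
Npnt: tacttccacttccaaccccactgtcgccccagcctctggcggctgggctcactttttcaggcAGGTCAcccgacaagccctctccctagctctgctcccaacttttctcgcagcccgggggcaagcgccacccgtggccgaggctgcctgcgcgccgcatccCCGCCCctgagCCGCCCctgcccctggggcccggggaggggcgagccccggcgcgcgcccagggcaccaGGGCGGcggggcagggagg

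Npnt had 3.77, 5.13, 3.97 and 3.0 CPM in wild-type inguinal tissue and 19.6, 20.3 and 15.6 CPM in the knockout. The groups were 3.04-fold apart at their closest libraries, and the log2 change was 2.24 (SE 0.17). In brown tissue it had 16.8, 16.1, 25.9 and 29.9 CPM in wild type and 13.7, 12.2, 9.53 and 12.6 CPM in the labelled knockout. Every labelled library was the lower here, with a log2 change of -0.90 (edgeR, SE 0.22, adjusted p = 0.102, lower in 4 of 4 libraries), which did not pass. Npnt was called lower in brown tissue by the DESeq2 Wald test (adjusted p = 0.00742) and in a fit of all 4 groups. The inguinal knockout mean of 18.5 ± 2.56 CPM (SD, n = 3) lay between the brown means of 22.2 ± 6.83 CPM (SD, n = 4) in wild type and 12.0 ± 1.77 CPM (SD, n = 4) in the labelled knockout.

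Itga8 had a log2 change of -0.55 in inguinal tissue and did not pass (edgeR adjusted p = 0.103), although its 3 knockout libraries all lay below wild type. Among 24 tested genes of nephronectin, its integrin and basement membrane, 3 rose and 3 fell, or 25.0%, with a median change of 0.00. The laminin chains Lamb3 (0.97) and Lama3 (0.59) and the matrix protein Fbln1 (0.67) rose. Nid2, which links laminin to collagen, fell by 0.54. Ret and Gfra1, the receptor pair for the ligand GDNF, fell by 0.65 and 0.85. The call of Fbln1 was lost without knockout library 2 (0.49, adjusted p = 0.0561), and that of Gfra1 without knockout library 2 or 3 or wild-type library 4 (adjusted p from 0.0544 to 0.0825). In the fit of all 4 groups Lamb3, Fbln1, Nid2, Ret and Gfra1 all lost the call (adjusted p from 0.0524 to 0.469). In brown tissue none of the 28 genes tested passed edgeR, and 8 had an unadjusted p below 0.05.

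Dtx4 encodes a deltex ubiquitin ligase, a family that acts on Notch receptors. In inguinal tissue it had 22.7, 22.4, 23.2 and 25.8 CPM in wild type, a narrow range, and 87.8, 86.6 and 62.6 CPM in the knockout. The log2 change was 1.76 (SE 0.12), and library 4 was the lowest of the 3 knockout libraries. Brown wild type had 40.6, 38, 80.6 and 60.2 CPM, and the labelled knockout had 35.5, 37.5, 40 and 30.1 CPM. Of the 4 labelled libraries 3 lay below the wild-type range, with a log2 change of -0.62 (edgeR, SE 0.23, adjusted p = 0.197) that did not pass.

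None of the other deltex genes tested passed as higher in inguinal tissue. Dtx1 (-0.26, adjusted p = 0.658) and Dtx2 (0.24, adjusted p = 0.137) did not pass edgeR, and Dtx3 fell by 0.35 (adjusted p = 0.0135, or 0.0677 without knockout library 3). Of 37 tested genes of deltex and Notch signalling, 6 rose and 8 fell, 37.8% in all, with a median of -0.04. Lfng, a glycosyltransferase that modifies Notch receptors, rose from 17.1 ± 1.64 CPM (SD, n = 4) to 34.1 ± 3.03 CPM (SD, n = 3), by 1.01. The receptor Notch1 (0.65) and the ligand Jag1 (0.34) rose. The coactivator Maml2 fell by 0.74, and the Notch target Hey1 fell by 0.63.

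Slco4a1 encodes an organic anion transporter of the plasma membrane that can carry thyroid hormones. Its upstream window is shown because it holds 4 GC boxes in a row, more than any other of the windows searched for these genes. It is 1 of 2 RefSeq windows, at chr2:180455995-180456244 on the plus strand of GRCm38.p6, and capitals mark the boxes at -90, -79, -61 and -19, all read as CCGCCC.
Slco4a1: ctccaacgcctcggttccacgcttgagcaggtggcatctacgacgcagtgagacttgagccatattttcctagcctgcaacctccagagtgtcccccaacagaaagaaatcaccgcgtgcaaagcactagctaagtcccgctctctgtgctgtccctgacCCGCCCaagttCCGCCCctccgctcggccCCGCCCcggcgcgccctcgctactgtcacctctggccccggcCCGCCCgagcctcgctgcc

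Slco4a1 had 0.519, 0.519, 0.305 and 0.305 CPM in wild-type inguinal tissue and 7.64, 9.48 and 3.61 CPM in the knockout. The knockout libraries spread widely, library 4 being the lowest, yet the lowest was 6.96 times the highest wild-type library, and the log2 change was 4.07 (SE 0.34). In brown tissue there were 2.28, 2.34, 0.831 and 1.42 CPM in wild type, and the labelled knockout had 1.93, 0.625, 0.135 and 0.941 CPM. The brown groups overlapped widely, and the log2 change of -0.92 (edgeR, SE 0.61, adjusted p = 0.445) did not pass in any setting tried.

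The relatives of Slco4a1 that could be tested in inguinal tissue did not pass as higher. Slco2b1 fell by 1.06 (SE 0.13, edgeR adjusted p = 0.000111), from 67.6 ± 11.4 CPM (SD, n = 4) to 32.1 ± 3.40 CPM (SD, n = 3), and Slco3a1 had -0.20 (adjusted p = 0.245). Slco4c1 was too low to test. Of 17 tested genes of organic anion transport and thyroid hormone handling, 6 rose and 1 fell, or 41.2% against 28.6% of all genes, with a median of 0.25. The 6 were the thyroid hormone receptors Thra (0.79) and Thrb (0.49), their partner Rxra (0.31), the hormone-responsive gene Thrsp (0.60), and the transporters Slc7a8 (0.78) and Slc16a10 (0.45). The call of Thrb was lost without knockout library 3 (0.41, adjusted p = 0.0592). In the fit of all 4 groups 5 of the 6 lost it, Slc7a8 (adjusted p = 0.339), Thrb (0.258), Slc16a10 (0.235), Thrsp (0.176) and Rxra (0.123).

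Sptlc3 encodes a catalytic subunit of serine palmitoyltransferase, the enzyme that starts sphingolipid synthesis, which pairs with Sptlc1 as Sptlc2 does. It was counted few times: 21 counts over the 4 wild-type inguinal libraries (exact Poisson 95% interval 13 to 32.1, counting error only) and 151 over the 3 knockout libraries (128 to 177). In CPM the wild-type libraries had 0.182, 0.0864, 0.305 and 0.0538 and the knockout libraries 1.76, 1.85 and 1.19. All 3 knockout libraries were far above wild type, with a log2 change of 3.48 (SE 0.45). Brown wild type had 0.136, 0.33, 0.143 and 0.373 CPM and the labelled knockout 0.0551, 0.531, 0.758 and 0.718 CPM. Labelled libraries 2, 3 and 4 lay above the wild-type range and library 1 below it, and the log2 change was 1.05 (edgeR, SE 0.64, adjusted p = 0.406).

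None of the other subunits tested passed as higher in inguinal tissue. Sptlc1 had a log2 change of -0.01 (edgeR adjusted p = 0.961), Sptssa -0.06 (adjusted p = 0.858), and Sptlc2 fell by 0.37 (adjusted p = 0.00332). Of 33 tested genes of sphingolipid synthesis and turnover, 5 rose and 5 fell, or 30.3%, with a median of -0.01. Sphk2, a sphingosine kinase, rose by 1.06, and Sgpl1, the lyase that ends sphingolipid breakdown, rose by 0.42. Cers2 (0.30), Sgms2 (0.60) and Galc (0.39) rose too. The glycosyltransferases Ugt8a and Ugcg fell by 1.15 and 0.69, Cers5 fell by 0.38, and Sgpp1, a phosphatase, fell by 0.57. Without knockout library 3 the calls of Sgms2 (adjusted p = 0.0792) and Ugcg (adjusted p = 0.0595) were lost. Those of Cers2 and Sgpp1 were lost without 1 of 2 wild-type libraries each (3 or 4 for Cers2, 2 or 4 for Sgpp1, adjusted p from 0.0516 to 0.0642). Sgpl1, Sgms2, Galc and Cers2 lost the call in the fit of all 4 groups (adjusted p from 0.0522 to 0.18).

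Glrx encodes the cytosolic glutaredoxin that removes glutathione from protein thiols. Its upstream window is at chr13:75839635-75839884 on the plus strand of GRCm38.p6. It is shown because Glrx alone, among the 9 genes with a window to search, held an AP-1 site (TGANTCA), at -98, in capitals. The other RefSeq start of the gene lies 1 base away.
Glrx: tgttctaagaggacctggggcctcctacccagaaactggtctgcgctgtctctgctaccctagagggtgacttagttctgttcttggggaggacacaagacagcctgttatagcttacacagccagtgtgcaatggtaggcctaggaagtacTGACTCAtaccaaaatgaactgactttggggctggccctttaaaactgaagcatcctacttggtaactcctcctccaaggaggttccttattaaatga

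Glrx had 16.1, 15.4, 11.3 and 13.5 CPM in wild-type inguinal tissue and 41, 41.8 and 38.4 CPM in the knockout. The knockout libraries agreed closely and lay 2.39-fold or more above wild type, with a log2 change of 1.53 (SE 0.12). Its brown levels were 25.2, 31.5, 35.1 and 37.8 CPM in wild type and in the labelled knockout 27, 19.9, 22.4 and 18.8 CPM. Labelled libraries 2, 3 and 4 lay below the wild-type range, with a log2 change of -0.57 (edgeR, SE 0.16, adjusted p = 0.131), which did not pass. In a fit of all 4 groups and in the DESeq2 Wald test it was called lower.

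The other glutaredoxins did not pass edgeR in inguinal tissue, at log2 changes of -0.16 for Glrx2, 0.14 for Glrx3 and -0.09 for Glrx5. Of 38 tested genes of glutathione and thioredoxin redox, 13 rose and 5 fell, 47.4% against 28.6% of all genes, with a median of 0.10. Gsr, which regenerates reduced glutathione, rose by 0.38 (SE 0.09, adjusted p = 0.00514). Gclc (0.40) and Gss (0.67), the enzymes of glutathione synthesis, and G6pdx (0.73), a source of NADPH, rose as well. The endoplasmic reticulum peroxidases Gpx7 and Gpx8 fell by 0.75 and 0.32, and the thioredoxin inhibitor Txnip fell by 0.88. Txn1 and Prdx4, the other two that fell, did so by 0.27 and 0.32. The calls of Gpx8, Txn1 and Prdx4 were each lost without any of several libraries (adjusted p up to 0.0657, 0.0577 and 0.144). These 3, Gsr and Gclc lost the call in the fit of all 4 groups (adjusted p from 0.0738 to 0.196), and Prdx4 with limma-voom (adjusted p = 0.0907). In brown tissue none of the 38 passed edgeR and 6 had an unadjusted p below 0.05.

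Prodh encodes proline dehydrogenase, the mitochondrial enzyme that starts proline breakdown. In inguinal tissue it had 32.3, 32.9, 31.6 and 35.7 CPM in wild type and 91.5, 80.7 and 83.6 CPM in the knockout. Both groups were tight, and the log2 change of 1.38 had the smallest error of the 10 (SE 0.09). The brown values were 19.8, 18.3, 9.06 and 11.3 CPM in wild type and in the labelled knockout 13.5, 27.4, 25.2 and 24.6 CPM. Here labelled libraries 2, 3 and 4 lay above the wild-type range and library 1 inside it, for a log2 change of 0.63 (edgeR, SE 0.29, adjusted p = 0.277). Prodh was thus higher on average in both depots, and the estimate of the inguinal minus brown change was 0.73 (SE 0.33), the least of the 10.

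Of 22 tested genes of proline and ornithine metabolism 5 rose and 3 fell in inguinal tissue, 36.4% against 28.6% of all genes, with a median of -0.06. Aldh4a1, which takes the product of Prodh on to glutamate, rose from 127 ± 13.1 CPM (SD, n = 4) to 234 ± 19.3 CPM (SD, n = 3), by 0.89 (SE 0.10, edgeR adjusted p = 3.59e-05). Got1 (1.32), Glud1 (0.67) and Glul (0.55), enzymes that use glutamate, and the proline transporter Slc36a1 (0.58) also rose. On the synthetic side Pycr1 had -0.32 and did not pass (adjusted p = 0.151). Odc1, the ornithine decarboxylase, fell by 0.57, and P4hb and Pepd fell by 0.39 and 0.26. The call of Pepd was lost without wild-type library 1, 2 or 3 or knockout library 3 (adjusted p up to 0.154) and without the low-count filter (adjusted p = 0.0546). In the fit of all 4 groups the calls of Aldh4a1 (adjusted p = 0.0855), Glul (0.33), Odc1 (0.0531) and Pepd (0.0795) were lost.

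Grip1 encodes a scaffold of PDZ domains that binds AMPA-type glutamate receptors, ephrin receptors and the Fraser complex protein Fras1. In inguinal tissue it had 0.182, 0.0864, 0.191 and 0.162 CPM in wild type, or 24 counts over 4 libraries (exact Poisson 95% interval 15.4 to 35.7), and 1.97, 2.49 and 1.9 CPM in the knockout. The groups were 9.96-fold apart at their closest libraries, with a log2 change of 3.76 (SE 0.34). Brown wild type had 1.38, 1.41, 2.67 and 1.82 CPM and the labelled knockout 1.98, 1.44, 1.08 and 1.36 CPM. The groups overlapped, with a log2 change of -0.32 (edgeR, SE 0.29, adjusted p = 0.590), and the 3 inguinal knockout libraries lay within the brown wild-type range.

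The gene of the same family, Grip2, fell by 1.18 in inguinal tissue (SE 0.25, edgeR adjusted p = 0.00363), from 3.18 ± 0.254 CPM (SD, n = 4) to 1.39 ± 0.539 CPM (SD, n = 3), and Fras1 had -0.10 (adjusted p = 0.794). Of 22 tested genes of the scaffolds, their cargo and the Fraser complex, none rose and 4 fell, or 18.2%, with a median of -0.15. The other 3 were Ephb1 (-1.29), an ephrin receptor, Kif5c (-1.38), a kinesin motor, and Ppfia4 (-0.61), a liprin, whose call was lost without knockout library 2 or 3 or wild-type library 1, 2 or 4 (adjusted p from 0.0594 to 0.150), with limma-voom (adjusted p = 0.0618) and in the fit of all 4 groups (adjusted p = 0.111). Markers of nerve and Schwann cells also moved here: 5 of 9 tested fell and 1 rose, against 28.6% of all genes called. Their summed level was 1063 to 1285 CPM in wild type and 740 to 884 CPM in the knockout. Th was at 0 in all 3 knockout libraries, but it averaged only 0.0216 CPM in wild type and was too low to test. Their part in the result was not tested, and in bulk tissue fewer cells of a type and less RNA per cell cannot be told apart.

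Mab21l2 encodes a protein with a nucleotidyltransferase fold that is needed for eye and body wall development. The upstream window at chr3:86548284-86548533, on the minus strand of GRCm38.p6, is shown because this gene had the largest inguinal rise of the 10. Capitals mark a TATA element (TATAAA) at -192 and a CCAAT box at -101.
Mab21l2: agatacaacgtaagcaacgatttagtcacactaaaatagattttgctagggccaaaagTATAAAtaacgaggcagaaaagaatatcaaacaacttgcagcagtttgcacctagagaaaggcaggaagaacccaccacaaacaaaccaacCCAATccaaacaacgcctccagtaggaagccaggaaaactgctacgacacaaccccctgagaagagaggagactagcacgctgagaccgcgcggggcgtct

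In inguinal tissue Mab21l2 was almost silent in wild type, with 12 counts over 4 libraries (exact Poisson 95% interval 6.20 to 21.0) against 176 over the 3 knockout libraries (151 to 204). The wild-type libraries had 0.13, 0.0576, 0.114 and 0.0359 CPM and the knockout libraries 2.77, 1.85 and 1.08 CPM. The knockout libraries differed among themselves, yet the lowest was 8.33 times the highest wild-type library, and the log2 change was 4.54 (SE 0.48). Wild-type brown libraries had 1.06, 0.901, 1.61 and 1.28 CPM and the labelled knockout 1.18, 0.125, 0.325 and 0.173 CPM. Labelled library 1 lay among the wild types and the other 3 far below them, with a log2 change of -1.42 (edgeR, SE 0.60, adjusted p = 0.241). These 3 were at levels near inguinal wild type.

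Mab21l1, the closest relative, had 2.63 ± 0.148 CPM (SD, n = 4) in wild-type and 2.69 ± 0.235 CPM (SD, n = 3) in knockout inguinal tissue, a log2 change of 0.04 (edgeR adjusted p = 0.887). Of 7 tested genes of the family none rose and 2 fell, Cgas by 0.83 and Itpripl1 by 0.40. The call of Itpripl1 was lost without knockout library 2 or 3 or wild-type library 2 (adjusted p from 0.0539 to 0.0651) and in the fit of all 4 groups (adjusted p = 0.0815). Mab21l2 lies inside Lrba on the opposite strand, and their exons overlap in the annotation. Its transcript shares 1035 bases with one of Lrba. No source used here says whether the counting used strand, so reads of the pair may be mixed. Lrba itself rose by 0.38 in inguinal tissue (SE 0.10, edgeR adjusted p = 0.0129, or 0.0687 without knockout library 3 and 0.159 in the fit of all 4 groups), and had -0.20 in brown tissue.

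Cd164l2 is named for its likeness to the sialomucin Cd164, a mucin-like membrane protein. In inguinal tissue it had 1.22, 1.09, 1.03 and 1.53 CPM in wild type and 9.82, 9.01 and 7.47 CPM in the knockout. The groups were 4.89-fold apart at their closest libraries, with a log2 change of 2.83 (SE 0.18). Brown wild type had 0.651, 1.53, 0.86 and 1.26 CPM and the labelled knockout 1.32, 3.22, 3.11 and 1.96 CPM. All but library 1 of the labelled libraries were above the wild-type range, with a log2 change of 1.15 (edgeR, SE 0.36, adjusted p = 0.154), the largest upward estimate of the 10 in brown tissue.

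Cd164 itself had a log2 change of -0.26 in inguinal tissue (edgeR adjusted p = 0.249), and of 8 tested sialomucins 1 fell, Cd34 by 0.62, and none rose. Cd164l2 overlaps exons of Gpr3, a constitutively active receptor gene on the opposite strand, over 115 bases of transcript. Gpr3 was too low to test, with 8 counts over the wild-type and 37 over the knockout inguinal libraries, against 197 and 835 for Cd164l2. In brown tissue Gpr3 had 11 counts in wild type and 22 in the labelled knockout. The counts of both genes were thus higher in the labelled knockout of each depot.

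**Figure D4:**
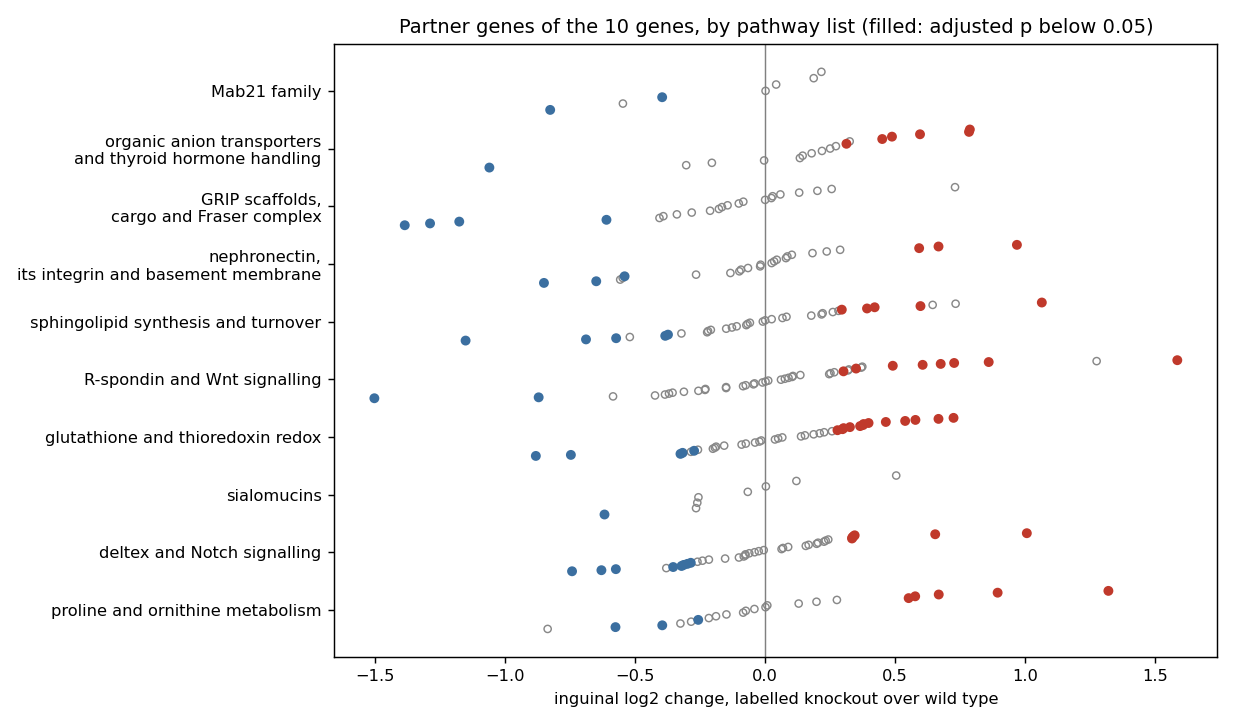
Inguinal log2 change of the tested genes of the 10 pathway lists, without the 10 genes themselves; each point is a gene, and filled points passed edgeR at an adjusted p below 0.05 (red higher, blue lower). The glutathione list has 13 filled red points of 38 genes, while the Mab21, GRIP and sialomucin lists have none.

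Over the 10 lists together, 46 of 250 tested partner genes rose and 34 fell in inguinal tissue, with a median change of 0.00. In brown tissue edgeR called 0 of 259, with a median of 0.04. The lists were drawn up around the members, and no claim is made that any list stands apart from other genes.

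The upstream windows were searched for 8 short motifs on both strands, and 9 of the 10 genes had at least 1 window in the RefSeq table. Dtx4 had none and was not searched. No window of these genes held an E-box (CACGTG), a D-box (TTATGTAA) or a cAMP response element (TGACGTCA), which stood in 6.02%, 0.819% and 1.55% of 32851 windows. The half-site AGGTCA was found for 2 genes and in 14% of all windows, the AP-1 site for 1 and in 6.75%, and the TATA element for 2 and in 12.4%. GC boxes were found for 4 genes and in 32.7% of windows, and CCAAT boxes for 2 and in 33.8%. A gene with several windows had more chances of a match than a single window, and a match says only that these letters are present.

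The genes whose level ran most like each member over the 15 libraries were named by Pearson correlation of log2(CPM + 0.5), as a description. They share libraries, depth and the same 4 groups. The 15 libraries include the inguinal ones that chose the members, so genes that also rose there are favoured as matches. The closest gene was Ciapin1 (r = 0.95) for Slco4a1, Herc3 (0.98) for Lgr6 and Tecpr1 (0.92) for Sptlc3. It was Creg1 (0.94) for Cd164l2 and Dnajc22 (0.95) for Grip1. Got1 (0.93) was also among the 3 closest to Slco4a1, and Shmt1 (0.98) and the citrate synthase gene Cs (0.97) among those of Lgr6. Lonp1, a mitochondrial protease, was among those of both Sptlc3 (0.92) and Cd164l2 (0.94). Glrx ran closest with Mcee (0.93), Mrpl16 (0.92) and Mrps23 (0.92), and the Mrp genes encode mitochondrial ribosomal proteins. Dtx4 ran with Mrps2 (0.96), Srr (0.94) and Hspa9 (0.93), Npnt and Grip1 both with Foxred1 (0.95 and 0.94), Mab21l2 with Iars2 (0.96) and Prodh with Acss3 (0.96).

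Within the 8 brown libraries some pairs of members ran together and others in opposition. The pairs named next were picked for their strong correlations. Mab21l2 ran with Glrx (r = 0.89) and Npnt with Glrx (0.86), while Sptlc3 ran with Cd164l2 (0.80). Prodh ran against Mab21l2 (-0.90), Grip1 (-0.90), Glrx (-0.89) and Npnt (-0.85). These 8 points hold both genotype groups and share depth and composition, and no p is given. They also hold a split of the wild-type libraries, 1 and 2 from 3 and 4.

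Markers of both tissues were present, and markers of several cell types moved with the inguinal groups. The counts of inguinal markers that rose or fell stand beside the 28.6% of all genes called in that tissue. White adipocyte markers summed to 34262 to 34954 CPM in wild-type and 30544 to 34279.5 CPM in knockout inguinal tissue, where 2 of 11 rose and 2 fell. Brown adipocyte markers summed to 5968 to 10187 CPM in wild-type brown tissue and 4466 to 7406 CPM in the labelled knockout. Of 10 tested brown and beige adipocyte markers 5 rose and none fell, with a summed level of 1563 to 2331 CPM in wild type and 3065 to 3849 CPM in the knockout. Ucp1 went from 820.0 ± 205 CPM (SD, n = 4) to 1912 ± 256 CPM (SD, n = 3), a log2 change of 1.24. Skeletal muscle markers fell for 11 of 12 genes, from 139 to 384 CPM down to 40.9 to 47.1 CPM. Mast cell markers rose for 4 of 7, from 64.6 to 72.2 CPM up to 110.5 to 130.8 CPM. Of 7 tested skin and mammary epithelium markers 2 fell. The whole list summed to 48.0 to 66.3 CPM in wild type and 43.7 to 66.6 CPM in the knockout. Krt5, Krt15 and Areg were at 0 in the knockout. They averaged only 0.219, 0.135 and 0.0610 CPM in wild type and were too low to test. Endothelial markers fell for 4 of 8 and B cell markers for 3 of 11. The epithelial and B cell counts are near the share over all genes. Of 12 adipose progenitor markers 1 rose and 3 fell, and of 8 macrophage markers 1 fell. None of 10 T cell markers was called. In brown tissue no marker list had a call. The epithelial sum reached 298 CPM in 1 labelled brown library and 39.5 CPM at most in wild type. Without any one of labelled libraries 2, 3 and 4 edgeR called 0 of the 10. It also called 0 with every brown library included, so these refits cannot show what the epithelial signal contributed. The part of these cell types in the 10 genes' values was not tested.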

How the data were processed

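For 15 libraries the authors deposited a table of whole-number counts for each gene, not normalized. Per the labels' protocols the kit was a stranded mRNA kit. Tools named by the submitters' processing notes are TopHat2 2.1.0, featureCounts, Subread and edgeR, with mm9. How strand was treated, and with which annotation, is not stated. Symbols were matched for 32919 of 37991 identifiers, and 290 of 292 pathway and 126 of 128 marker entries were found. Within groups no pair of libraries agreed within sampling noise. The brown wild-type libraries split, 1 and 2 from 3 and 4. Chi-square per degree of freedom was 22.1 between 1 and 2 and 16.9 between 3 and 4. Across the split it was 65.3 to 84.2. The reason for this split was not tested, and it widens the wild-type ranges used in brown tissue.

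Each depot was fitted alone in R 4.3.3 with edgeR 4.0.16 (filterByExpr with a minimum count of 10, TMM, robust quasi-likelihood F-test), and a gene was called at a Benjamini-Hochberg adjusted p under 0.05 over all genes tested. The SE is the absolute change over the root of F. Differences between depots came from 1 fit of all 4 groups, and CPM levels from all 15 libraries scaled together. Scripts were tested on simulated data. Alternatives used DESeq2 1.42.0, limma 3.58.1, other filters, a replicate block and leaving out each library.

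The members, lists and tests were chosen with earlier results of these data known. Named genes were the members, their closest partners, up to 4 further genes per list by smallest inguinal adjusted p, and the 3 closest by correlation. Other list genes named, and Lrba and Gpr3, were chosen after their values were seen. Overlaps came from the GENCODE annotation and blastn 2.17.0 (95% identity over 100 bases). Promoter windows of 250 bases are RefSeq's on GRCm38.p6, another build than mm9, matched by symbol.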

Additional observations from a re-analysis of the deposited data

Results flagged for a closer look

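The change in inguinal tissue differed from that in brown tissue for 10 of 60 reference and partner genes tested, by the interaction term of the edgeR fit of all 4 groups. Over all genes that term called 1517 of 16858, or 9.0%. Many of the partners were named for small inguinal p-values, so this count is not independent of their selection, and tissue and age cannot be told apart in it.

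Axin2 had the clearest difference among them, an inguinal minus brown log2 change of 2.40 (adjusted p = 0.000985). It rose in inguinal tissue, and in brown tissue its 4 labelled knockout libraries all lay below wild type at a log2 change of -0.84 (edgeR adjusted p = 0.146). The difference was 1.27 for Got1 (adjusted p = 0.0115), 1.24 for Slc16a10 (adjusted p = 0.0285), 0.92 for Slc36a1 (adjusted p = 0.0191) and 0.91 for G6pdx (adjusted p = 0.00835). It was -1.01 for Slco2b1 (adjusted p = 0.00403), -0.86 for Tcf7l2 (adjusted p = 0.00541) and -0.76 for Gpx7 (adjusted p = 0.0481). The references differed too, Il33 by -2.65 (adjusted p = 0.0218) and Ucp1 by 2.15 (adjusted p = 0.0147).

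Among the 10 members, Npnt was the one whose groups lay apart in opposite directions, higher in all 3 inguinal knockout libraries and lower in all 4 labelled brown libraries. Its inguinal minus brown log2 change was 3.11 (SE 0.31). That difference was not tested, because the inguinal values chose the gene and fixed its inguinal direction. Brown groups that did not overlap were found for 9.74% of all genes tested, so 1 of 10 is near the share over all genes.

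No library of the 10 members, Il33 or Ucp1 stood apart from its group by Dixon's test at 95%, over the 36 groups of 4 libraries examined.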

How the results depend on the processing

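The count of genes called in brown tissue was 41. Without the low-count filter it was 67, by DESeq2's Wald test 1032, by limma-voom with quality weights 3127, in a fit of all 4 groups 1151 and with the replicate block 7. It ran from 2 to 2905 when each library was left out, the highest without labelled knockout library 1 and the next highest 19. The inguinal count of 4498 was 2249 with all 4 groups in 1 fit and 3274 to 4719 with a library left out. Members called in brown tissue numbered 0. By the Wald test they were 3, by limma-voom 5, in the fit of all 4 groups 3, and 0 to 5 when a library was left out. A floor of 5 CPM left 5 members to test. The brown change of Lgr6 (0.02) turned to -0.52 with limma-voom, -0.12 with the replicate block, -0.10 and -0.17 without wild-type library 1 or 2, and -0.51 without labelled library 1, and ran from -0.51 to 0.28 over the libraries left out. No other member changed sign in brown or inguinal tissue in the alternatives run. Of the same-numbered brown libraries 3 of 4 pairs correlated in their deviations (0.12, 0.19 and 0.15) and pair 2 did not (-0.07), and the 3 inguinal pairs ran from -0.12 to 0.09. Since not every pair correlated above 0.1, the numbers were not taken to pair samples. The block left 3990 inguinal calls. Of 1093 refits of named partners in inguinal tissue, 76 lost the call and none turned a call around. The fit of all 4 groups took 28 of them, and leaving out knockout library 3 took 13. The 1093 also hold refits of genes not called in the main fit, such as Mab21l1, Sptlc1 and Lgr4. Those had no call to lose, and these named ones changed sign in some refits, so 76 of 1093 understates how often calls were lost. Few counts limit Mab21l2, Grip1 and Sptlc3 in wild-type inguinal tissue. The cause of these changes was not tested.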
